A study of Bos taurus with 12 samples.

Results

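Aminoacyl-tRNA synthetases load each tRNA with its amino acid, and most cells carry 1 set of these enzymes for protein synthesis in the cytosol and another for the mitochondria. The genes described here are the synthetases together with the genes of the amino acid starvation response, chosen by symbol: every gene named by a single letter and ARS, ARS1 or ARS2, and EPRS1, ATF3, ATF4, ATF5, DDIT3, TRIB3, CHAC1, PSAT1, PHGDH, PSPH, SESN2, CEBPB and CEBPG. They came to 41 of the 9155 gene symbols on the array: 16 cytosolic and 13 mitochondrial synthetases, 6 transcription factors, 3 targets and feedback genes, and 3 enzymes of serine synthesis. KARS1 and GARS1, whose enzymes also serve the mitochondria, are counted as cytosolic. Each gene was represented by the probe set with the highest mean over all arrays. The rule also lists ASNS, EIF2AK4, FARSA and FARSB, for which no probe set with a single gene symbol was found, and they were not analysed here.

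When an amino acid runs short, uncharged tRNA activates the kinase GCN2, which phosphorylates the initiation factor eIF2. General translation then slows while ATF4, a transcription factor, is made more efficiently, and ATF4 raises transcription of many cytosolic synthetases, amino acid transporters and the enzymes of serine synthesis. In cattle the conceptus hatches from the zona pellucida and begins to elongate in the uterus before it attaches.

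The study measured bovine embryos on an Affymetrix expression array on 12 arrays in 4 groups of 3, at Day 7 (blastocysts) and Day 13 (conceptuses). Each Day 7 array held a pool of 25 blastocysts and each Day 13 array a pool of 5 conceptuses. In vivo embryos came from superovulated animals, and in vitro embryos from in vitro fertilization. All Day 13 conceptuses, of either origin, had been transferred as Day 7 blastocysts to synchronized recipient heifers, 10 to a recipient, so the in vitro Day 13 group had spent the days after transfer in a uterus, and the Day 13 pools hold only embryos that were recovered. No breed, sex or culture medium was given in the sources used here, and neither was the recipient of each conceptus.

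Values are log2 intensities as deposited, and a difference of 1 is a doubling of the intensity. Background was set at 3.39, below which 99% of the readings of 48 control reporters without added target fell. Of the 41 genes, 38 lay above it on at least 3 arrays; AARS2, CEBPB and FARS2 did not, and between 36 and 39 did so on each array. Groups were compared with limma over all 24016 probe sets, with Benjamini-Hochberg adjustment, and a gene is said to rise or fall where the adjusted p was below 0.05.

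Trophoblast markers measured 6.61 to 7.52 in mean level over the arrays of both Day 7 groups, 9.16 to 9.71 at Day 13 in vivo and 10.4 to 11.2 at Day 13 in vitro. Of 12 measured, 9 lay above background on all 3 arrays of each Day 7 group, 10 at Day 13 in vivo and 12 at Day 13 in vitro. They did not move together: in vivo TFAP2A, IFNT2 (10.1 to 9.13) and PAG2 (8.21 to 6.29) had lower means at Day 13, the others higher. Hypoblast markers (8 measured) had mean levels of 8.15 to 8.54 at Day 7 in vivo, 8.42 to 8.63 at Day 7 in vitro, 10.1 to 10.8 at Day 13 in vivo and 8.11 to 9.08 at Day 13 in vitro. These too moved both ways. In vivo GATA6 (13.6 to 12.2), PDGFRA (11.4 to 10.6) and FN1 (14.1 to 13.5) had lower means at Day 13. LAMB1, APOA1, APOE and APOA2 (2.28 to 8.20) had higher means, and GATA4 lay under background in the mean of both. Of 3 markers of pluripotent cells, POU5F1 averaged 9.33, 10.8, 7.69 and 4.98 in the same order of groups, CRIPTO 6.47, 2.98, 11.3 and 10.0, and SOX2 lay under background in the mean of every group. Of 8 uterine epithelium markers, SERPINA14, PAEP, PGR and ESR1 lay at background on every array, and SPP1 lay above it on 10 arrays, with a mean of 6.73 at Day 13 in vivo. Of 9 blood and immune markers, PTPRC, CD3E and CD14 lay at background on every array, and HBB averaged 7.27 in both Day 7 groups but lay under background in the mean of both Day 13 groups. Of 11 cumulus and granulosa markers, FSHR and CYP19A1 lay at background on every array, HAS2 and STAR above it on all, and TNFAIP6 averaged 5.01 at Day 13 in vivo. Of 8 stroma and endothelium markers, COL3A1, DCN and CDH5 lay at background on every array, whereas COL1A2 averaged 7.43 and 7.40 in the Day 7 groups, and PECAM1 and THY1 lay above background on all arrays. The part of these markers in the results was not tested. In pooled whole embryos, fewer cells of a type and less RNA per cell cannot be told apart. Added poly-A control RNA read 13.3 to 15.0 on all arrays of 3 groups but 9.27, 10.5 and 13.0 at Day 13 in vitro. The GAPDH 3' minus 5' difference was 5.58 to 5.65 at Day 7 in vivo, 3.40 to 4.19 at Day 7 in vitro, 2.85 to 4.62 at Day 13 in vivo and 2.53 to 4.17 at Day 13 in vitro. Both measures move with the groups, and their part in the results was not tested beyond the fits that carry them as covariates.

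Day 7 in vivo replicate 3 stood above the other arrays of its group for 26 of the 38 genes above background, against 34.9% of all probe sets above background. It was the highest of its group for 12 of 16 cytosolic and 5 of 11 mitochondrial synthetases, 3 of 5 transcription factors, and all 3 targets and all 3 serine synthesis genes. Relative to the mean of the other arrays of its group it was higher by 2.46 for CHAC1, 2.46 for PSPH, 2.41 for YARS1, 1.61 for PSAT1 and 1.55 for SARS1. Differences that involve the Day 7 in vivo group are given without this array too where it moved them most. It was picked after seeing the values of these genes. Leaving it out lowers the Day 7 in vivo mean of any gene it reads highest, so those fits are not a separate test.

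**Figure D1:**
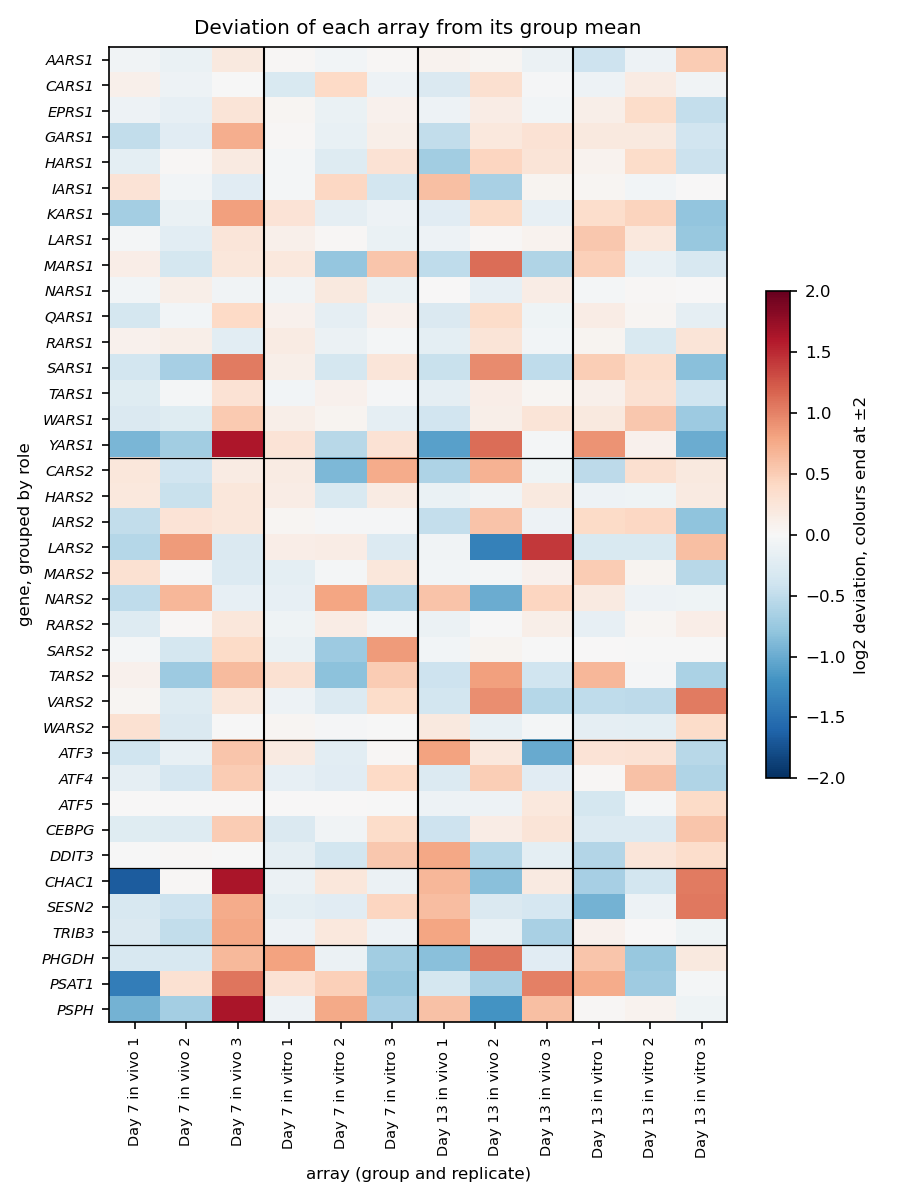
Heat map of the log2 deviation of each array (columns, by group and replicate) from the mean of its group for the 38 genes above background (rows, grouped by role), with colours ending at ±2. Day 7 in vivo replicate 3 is the highest of its group for 26 of the 38 genes, against 34.9% of probe sets above background. Day 13 in vitro replicate 3 is the highest of its group for 12 of the 38, against 36.4%.

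The first comparison asked how the genes differed between Day 7 and Day 13 in embryos of in vivo origin. The mitochondrial synthetases HARS2, LARS2 and RARS2, which charge mitochondrial histidine, leucine and arginine tRNAs, were lower at Day 13, and no gene of the set was called higher. With the replicate number as a block LARS2 was not called and CEBPG, a partner of ATF4, was called higher by 0.80 (adjusted p = 0.0454, against 0.305 without the block). No cytosolic synthetase, transcription factor, target or serine synthesis gene was called. The 3 called of 41 compare with 3.79% of all probe sets and 8.23% of those above background; in direction, 3.64% of the latter were called higher and 4.59% lower at Day 13. At an unadjusted p below 0.05 there were 11 of the 41, against 27.3% of probe sets above background, and the median difference over all 41 was 0.13, against −0.02 over probe sets above background.

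RARS2 measured 9.57, 9.85 and 10.04 at Day 7 in vivo and 8.53, 8.63 and 8.77 at Day 13 in vivo. The Day 7 arrays all lay above the Day 13 arrays, with no overlap, and RARS2 fell by 1.17 ± 0.13 (SE, limma, adjusted p = 0.00227). HARS2 measured 9.21, 8.55 and 9.23 against 7.56, 7.63 and 7.90. Those groups did not overlap either, and the level fell by 1.30 ± 0.21 (adjusted p = 0.0122). LARS2 measured 7.40, 8.82 and 7.67 at Day 7 and 4.88, 3.60 and 6.36 at Day 13, spread widely within Day 13. LARS2 fell by 3.01 ± 0.67 (adjusted p = 0.0478), a call that the replicate block ended (adjusted p = 0.113) and that did not hold when any one array but Day 13 in vivo replicate 3 was left out (differences of −3.72 to −2.34, adjusted p up to 0.142 where the call was lost). The fit with GAPDH 3' minus 5' as a covariate gave LARS2 −1.68 (adjusted p = 0.383) and HARS2 −1.24 (adjusted p = 0.107), and kept RARS2 at −1.04 (adjusted p = 0.0372).

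The other mitochondrial synthetases gave differences from −1.05 to 0.83, none called. MARS2, the mitochondrial methionine enzyme, gave −0.62 ± 0.26 (adjusted p = 0.318), and IARS2, the isoleucine enzyme, 0.75 ± 0.39 (adjusted p = 0.484). The 16 cytosolic synthetases ranged from −0.84 to 0.95. For 7 of the 11 amino acids whose cytosolic and mitochondrial enzymes were both measured, the mitochondrial difference was the lower of the pair. In vitro it was so for 4 of the 11. The alanine pair, counted among the 7 in vivo, rests on AARS2. That gene lay above background on 1 of 12 arrays, so the direction of its pair is not known. In vivo, in the leucine pair LARS1 gave 0.08 and LARS2 −3.01; in the histidine pair HARS1 gave 0.20 and HARS2 −1.30; in the arginine pair RARS1 gave −0.05 and RARS2 −1.17. A second RARS1 probe set above background differed in sign, at 0.36 ± 0.67 between the days in vivo. Between origins at Day 7 that probe set gave 1.12 ± 0.67, where the first gave −0.02. It was not called in any comparison. HARS1 and HARS2 are adjacent in the RefSeq gene order (ARS-UCD2.0).

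CHAC1, an ATF4 target that degrades glutathione, measured 2.27, 3.95 and 5.57 at Day 7 in vivo and 7.91, 6.40 and 7.42 at Day 13 in vivo. The 3 Day 7 arrays were spread over more than the difference between any pair of Day 13 arrays, replicate 1 was below background, and the groups did not overlap. Its difference of 3.31 ± 0.82 was not called (adjusted p = 0.072), and was 2.94 with replicate 1 set at background. With all 12 arrays it was called higher in 2 alternatives. These were fitting only probe sets above background, which adjusts over fewer tests, and centring on ribosomal protein genes. It was not called in the other alternatives that kept all 12 arrays. Without Day 7 in vivo replicate 3, picked after seeing the data, it was called at 4.13 ± 0.70 (adjusted p = 0.0228), or 3.57 with replicate 1 set at background. Replicate 3 was the highest Day 7 in vivo array for CHAC1, so leaving it out was bound to enlarge the difference. AARS2, above background on 1 of 12 arrays, also passed the threshold without that array (adjusted p = 0.0442), and is given no size. The uncalled differences of PSPH and YARS1 in vivo were 1.31 and 0.95 with that array, and 2.13 and 1.76 without it. Another PSPH probe set above background gave −0.05 ± 0.51 with all arrays, also not called.

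**Figure D2:**
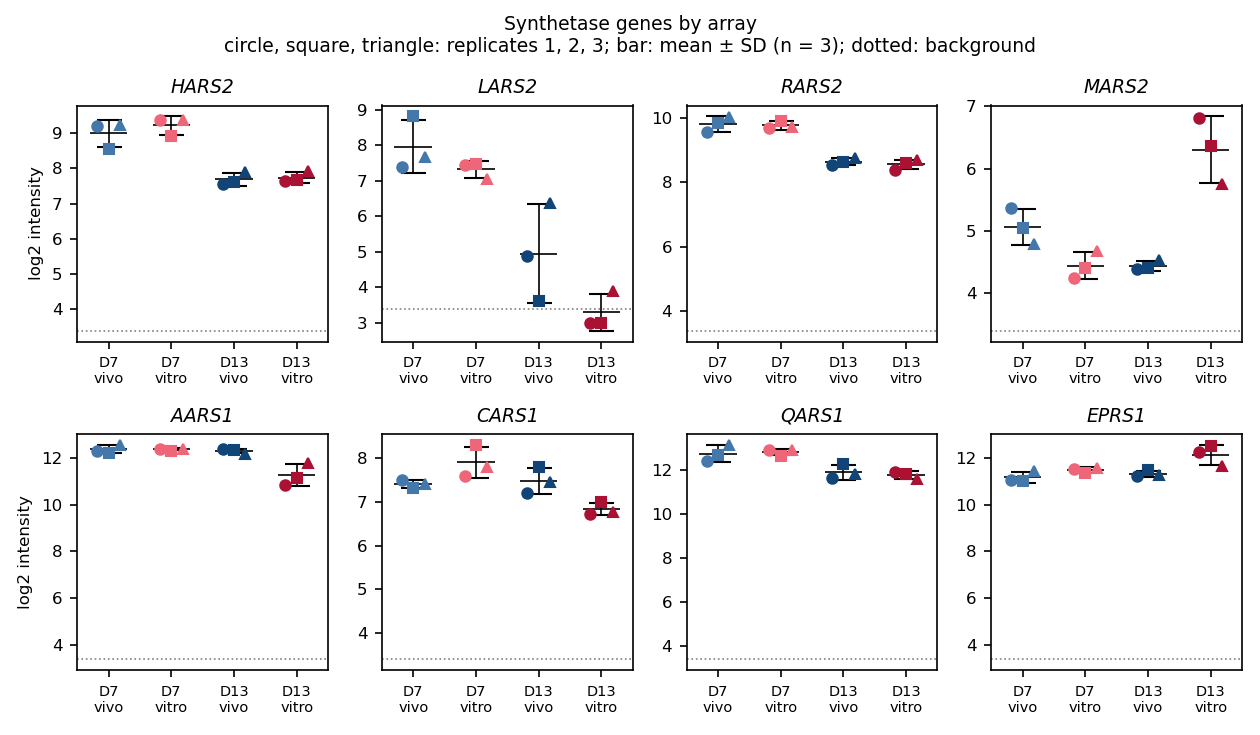
Log2 intensity (y axis) of 8 synthetase genes on each array by group (x axis; D7 and D13 are Day 7 and Day 13), with replicates 1 to 3 as circle, square and triangle and the group mean ± SD as bars (n = 3). RARS2 and HARS2 lie lower on all 6 Day 13 arrays than on all 6 Day 7 arrays, and MARS2 is highest on the 3 Day 13 in vitro arrays.

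The second comparison was the same interval in embryos of in vitro origin. Here 9 of the 41 genes were called, 7 lower and 2 higher at Day 13, against 7.51% of all probe sets and 16.6% of those above background. After centring each array on ribosomal protein genes, 6 were higher and 5 lower. Of probe sets above background 7.86% were called higher and 8.75% lower. At an unadjusted p below 0.05 there were 17, against 38.6% of probe sets above background, and the median over all 41 was −0.24, against −0.02 over probe sets above background. The lower genes were the cytosolic synthetases AARS1, CARS1 and QARS1, the mitochondrial synthetases HARS2, LARS2 and RARS2, and PHGDH, the first enzyme of serine synthesis. The higher genes were MARS2 and the stress-induced transcription factor ATF3.

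AARS1, the cytosolic alanine enzyme, measured 12.39, 12.31 and 12.38 at Day 7 in vitro and 10.84, 11.14 and 11.76 at Day 13 in vitro. All Day 13 arrays were lower, with replicate 3 the nearest to Day 7. AARS1 fell by 1.11 ± 0.20 (adjusted p = 0.0145). At Day 7 in vivo it measured 12.30, 12.23 and 12.56. CARS1, the cysteine enzyme, measured 7.61, 8.32 and 7.80 against 6.73, 7.00 and 6.77 and fell by 1.07 ± 0.20 (adjusted p = 0.0157), again without overlap. In vivo CARS1 measured 7.51, 7.32 and 7.42 at Day 7 and 7.20, 7.80 and 7.45 at Day 13, which overlapped. QARS1, the glutamine enzyme, measured 12.92, 12.65 and 12.91 against 11.91, 11.80 and 11.58 and fell by 1.06 ± 0.22 (adjusted p = 0.0249). In vivo QARS1 measured 12.39, 12.70 and 13.15 at Day 7, all above the 11.62, 12.28 and 11.82 at Day 13, and was not called (adjusted p = 0.0978). The other 13 cytosolic synthetases gave differences of −1.04 to 0.97, none called. The AARS1 call needed Day 7 in vitro replicates 1 and 3 and Day 13 in vitro replicate 2, each being left out singly (adjusted p 0.0542 to 0.06). For CARS1, omitting Day 13 in vitro replicate 1 ended the call (adjusted p = 0.065), and for QARS1 omitting either Day 7 in vitro replicate 1, replicate 3, or one of the Day 13 in vitro arrays (adjusted p 0.0511 to 0.095).

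HARS2 measured 9.37, 8.92 and 9.38 at Day 7 in vitro and 7.64, 7.66 and 7.93 at Day 13 in vitro and fell by 1.48 (SE 0.21, adjusted p = 0.00468). The groups did not overlap, as in vivo. RARS2 measured 9.68, 9.92 and 9.71 against 8.39, 8.59 and 8.69 and fell by 1.21 (SE 0.13, adjusted p = 0.0013). LARS2 measured 7.46, 7.46 and 7.04 against 2.99, 2.99 and 3.89, so that 2 of the 3 Day 13 arrays were at background, and fell by 4.03 (SE 0.67, adjusted p = 0.00938), or by at least 3.76 with those 2 arrays set at background. MARS2 measured 4.25, 4.40 and 4.67 against 6.81, 6.36 and 5.75, and rose by 1.87 ± 0.26 (adjusted p = 0.00416). No array of 1 day reached the range of the other. These 4 mitochondrial calls held when any single array was left out.

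ATF3 measured 10.15, 9.76 and 10.00 at Day 7 in vitro and 12.20, 12.22 and 11.37 at Day 13 in vitro, and rose by 1.96 ± 0.47 (adjusted p = 0.04). All Day 13 arrays were higher. At Day 7 in vivo it measured 9.06, 9.30 and 10.02. The call held without 4 of the 12 arrays left out singly: it was lost without any Day 7 in vitro array, Day 13 in vitro replicate 1 or 2, Day 7 in vivo replicate 1 or 2, or Day 13 in vivo replicate 2 (adjusted p 0.0557 to 0.145). PHGDH measured 8.93, 8.01 and 7.43 against 5.38, 4.07 and 5.02, with no overlap, and fell by 3.30 ± 0.60 (adjusted p = 0.0139). Omitting Day 7 in vitro replicate 1, or else Day 13 in vitro replicate 2, ended that call (adjusted p 0.0555 and 0.0561).

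The poly-A control values were lowest on Day 13 in vitro replicates 1 and 2. With the poly-A mean as a covariate limma called none of the 41 in vitro (9 at an unadjusted p below 0.05), and leaving out both arrays, chosen after seeing the data, left 2, MARS2 (1.31, adjusted p = 0.0379) and RARS2 (−1.08, adjusted p = 0.0344). That fit has 1 array in the Day 13 in vitro group, which is assumed to vary like the other groups. With the covariate, RARS2 gave −1.11 (adjusted p = 0.0716) and AARS1 −0.39 (adjusted p = 0.365). Without Day 13 in vitro replicate 3 instead, also singled out after seeing the data, 12 genes were called. This added EPRS1 (0.88), LARS1 (1.35), IARS2 (1.56) and VARS2 (−2.14) and dropped QARS1. It was the highest count among the 12 fits that each left out 1 array. The share of all probe sets called in that fit was not analysed here, so the count cannot be set against it.

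**Figure D3:**
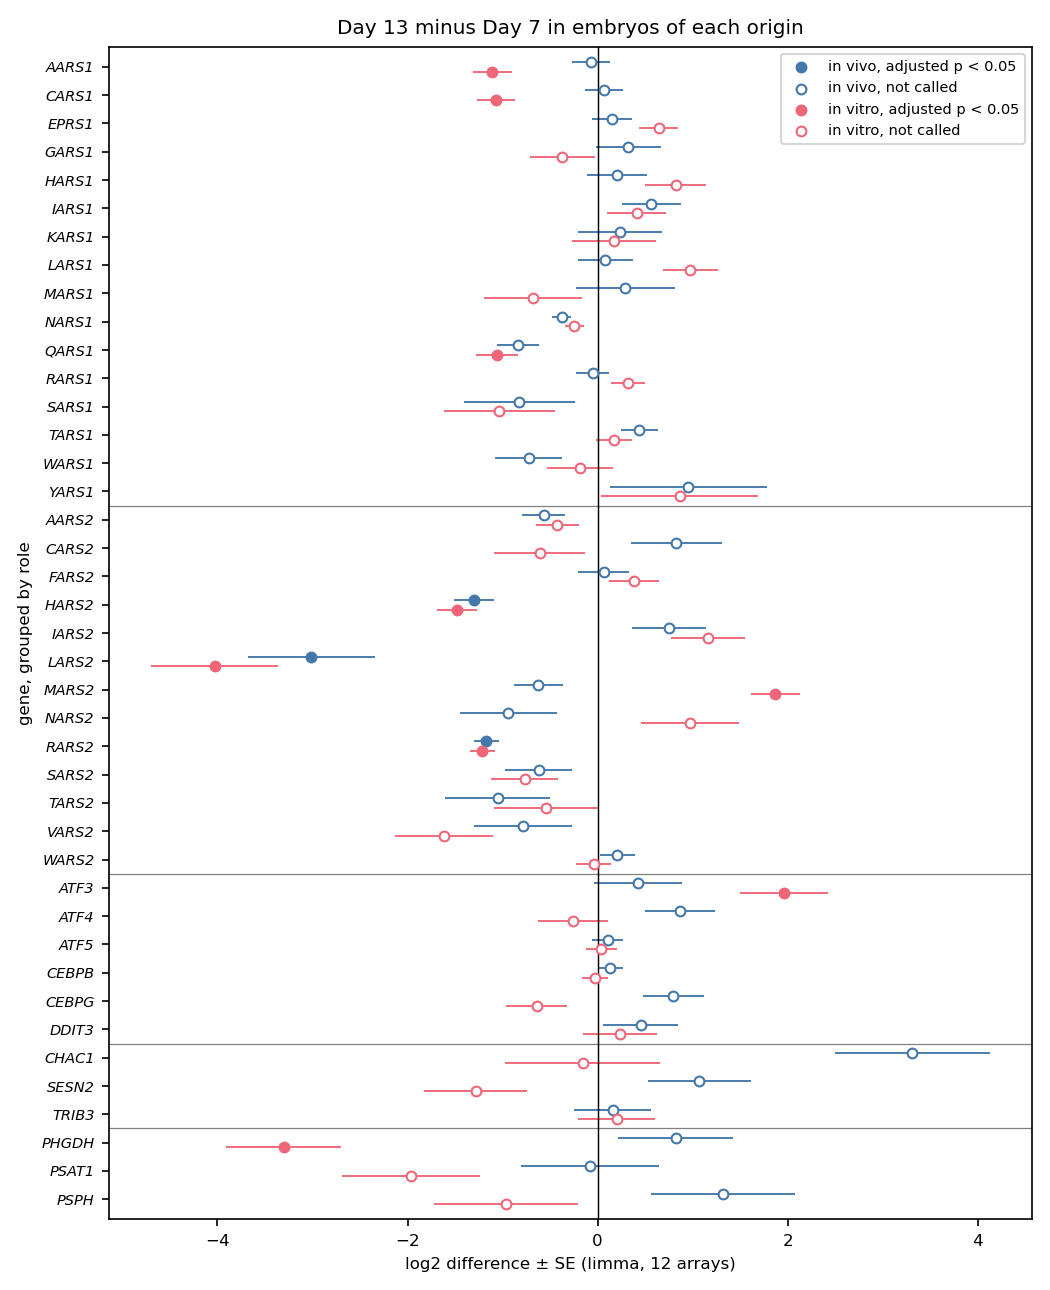
Log2 difference between Day 13 and Day 7 ± SE (x axis) for all 41 genes (y axis, grouped by role), for in vivo (blue) and in vitro (red) origin; filled points have an adjusted p below 0.05. HARS2, LARS2 and RARS2 are filled for both origins, and MARS2, ATF3, AARS1, CARS1, QARS1 and PHGDH only for in vitro origin.

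A call in embryos of one origin and not the other does not show that the day difference differed between them, so that difference was tested. It was called for 1 of the 41 genes, MARS2, against 0.4% of all probe sets and 0.831% of those above background, with 9 of 41 at an unadjusted p below 0.05 (21.1% of probe sets above background). MARS2 measured 5.36, 5.05 and 4.78 at Day 7 in vivo and 4.39, 4.40 and 4.53 at Day 13 in vivo, lower at Day 13 where the in vitro arrays were higher. The day difference was greater by 2.49 ± 0.37 in vitro (adjusted p = 0.0378). Leaving out single arrays moved it between 2.24 and 2.77, and the call was lost for 9 of the 12 arrays, all but Day 7 in vivo replicate 3 and Day 13 in vitro replicates 1 and 3 (adjusted p 0.0534 to 0.103). It was also lost with the replicate block (adjusted p = 0.11). PHGDH gave −4.13 ± 0.85 (adjusted p = 0.11), CHAC1 −3.47 ± 1.16 (adjusted p = 0.329) and AARS1 −1.04 ± 0.29 (adjusted p = 0.232), none called.

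The third comparison set in vitro against in vivo origin at Day 7. limma called none of the 41 genes, with 9 at an unadjusted p below 0.05. Of all probe sets 0.208% were called and of those above background 0.378%, and 12% of the latter had an unadjusted p below 0.05. The serine synthesis enzymes gave the differences of largest size among the 41.

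PHGDH measured 4.07, 4.07 and 5.05 at Day 7 in vivo and 8.93, 8.01 and 7.43 at Day 7 in vitro, 3.73 ± 0.60 higher on average in vitro (adjusted p = 0.0789). The groups did not overlap. Its lowest value, 4.068, was shared by 3 arrays, among them Day 7 in vivo replicates 1 and 2, so size and spread rest partly on tied values. PSAT1, the enzyme of the second step, measured 7.46, 9.14 and 9.91 against 12.31, 12.49 and 11.26, a difference of 3.19 ± 0.73 (adjusted p = 0.24), also without overlap. PSPH, which completes the pathway, measured 6.14, 6.41 and 8.73 against 9.26, 10.13 and 8.71. Here the highest in vivo array, replicate 3, lay above the lowest in vitro array, and the difference was 2.28 ± 0.76 (adjusted p = 0.593). Without Day 7 in vivo replicate 3 the differences were 4.06 for PHGDH (adjusted p = 0.0728), 3.73 for PSAT1 (adjusted p = 0.145) and 3.10 for PSPH (adjusted p = 0.134), none called. A second PSAT1 probe set above background gave 0.64 ± 0.12 at Day 7 (adjusted p = 0.137) and −0.73 ± 0.12 between the days in vitro (adjusted p = 0.00994), where the first gave −1.96 ± 0.73 (adjusted p = 0.172). A second PSPH probe set gave 0.33 ± 0.51 at Day 7 (adjusted p = 1). Fitting only probe sets above background, which adjusts over fewer tests, gave PHGDH an adjusted p of 0.018, centring on ribosomal protein genes gave 0.0326 and 3.27, and the GAPDH covariate gave 0.547 and 2.91.

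ATF4 measured 9.28, 9.12 and 9.97 at Day 7 in vivo, 10.28, 10.23 and 10.85 at Day 7 in vitro, 10.05, 10.83 and 10.10 at Day 13 in vivo and 10.22, 10.77 and 9.59 at Day 13 in vitro. The Day 7 groups did not overlap, and the difference of 0.99 ± 0.37 was not called (adjusted p = 0.658). DDIT3, the CHOP transcription factor, measured 8.46, 8.49 and 8.46, then 8.37, 8.17 and 9.08, then 9.69, 8.36 and 8.72, then 8.19, 9.01 and 9.12 in the same order of groups, all overlapping. CHAC1 at Day 7 in vitro measured 5.95, 6.29 and 5.95, above all in vivo arrays, with a difference of 2.13 ± 0.82 (adjusted p = 0.671), or 2.95 ± 0.70 without Day 7 in vivo replicate 3 (adjusted p = 0.252). With Day 7 in vivo replicate 1 set at background the first was 1.76.

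SESN2, a leucine sensor that restrains mTORC1, measured 6.64, 6.54 and 7.70 at Day 7 in vivo and 7.74, 7.70 and 8.36 at Day 7 in vitro. At Day 13 it measured 8.65, 7.74 and 7.70 in vivo and 5.70, 6.55 and 7.70 in vitro, and 4 arrays shared 1 value to 3 decimals. TRIB3, a feedback inhibitor of ATF4, measured 3.67, 3.47 and 4.72 at Day 7 in vivo and 3.04, 3.35 and 3.04 at Day 7 in vitro, close to background. It measured 4.90, 3.97 and 3.46 at Day 13 in vivo and 3.42, 3.34 and 3.26 at Day 13 in vitro. Neither gene was called in any comparison. CEBPB lay at background on all arrays, and ATF5 had 1 value on 7 arrays.

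**Figure D4:**
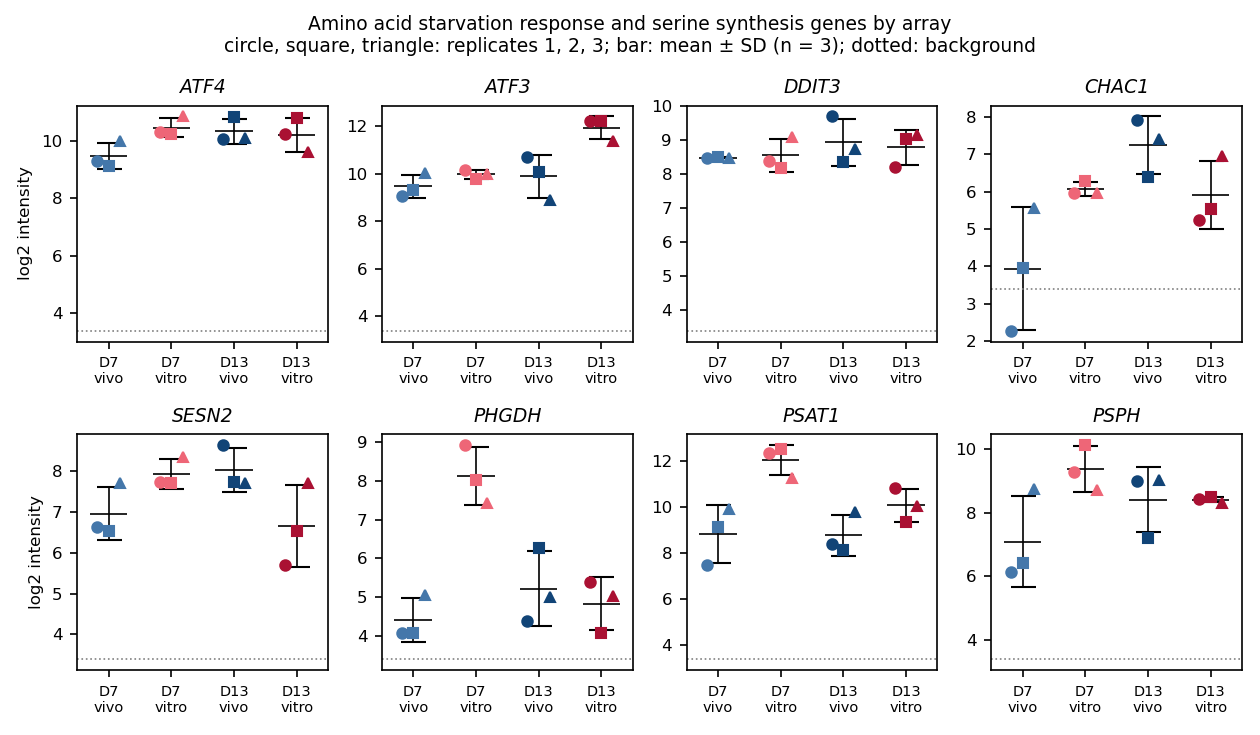
Log2 intensity (y axis) of 8 starvation response and serine synthesis genes on each array by group (x axis), with replicates 1 to 3 as circle, square and triangle and the group mean ± SD as bars (n = 3). PHGDH and PSAT1 are higher on all 3 Day 7 in vitro arrays than on all 3 Day 7 in vivo arrays, and ATF3 is highest at Day 13 in vitro.

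The cytosolic synthetases had a median difference of 0.34 at Day 7 between origins, and the mitochondrial ones −0.05. Centred on ribosomal protein genes the cytosolic median was −0.13, so its sign depends on the scaling, which moved the median of all probe sets above background from 0.06 to −0.41. GARS1 gave 0.96 ± 0.34 (adjusted p = 0.627), and YARS1 0.996 ± 0.83 (adjusted p = 0.886). YARS1 measured 6.38, 6.58 and 8.90 at Day 7 in vivo and 8.55, 7.72 and 8.57 at Day 7 in vitro, so the groups overlapped through replicate 3. Without that array the differences were 1.80 ± 0.73 for YARS1 (adjusted p = 0.601), 1.32 ± 0.27 for GARS1 (adjusted p = 0.168) and 1.26 ± 0.55 for SARS1 (adjusted p = 0.601), against 0.75 ± 0.58 for SARS1 with it.

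The fourth comparison set the origins against each other at Day 13. MARS2 was the 1 gene of 41 called, against 1.2% of all probe sets and 2.57% of those above background, with 11 of 41 at an unadjusted p below 0.05 (29.9% of probe sets above background). Its 6.81, 6.36 and 5.75 in vitro lay above the 4.39, 4.40 and 4.53 in vivo, and it was higher by 1.87 ± 0.26 (adjusted p = 0.0156). The call ended on omitting Day 13 in vitro replicate 2 (adjusted p = 0.06), with the replicate block (adjusted p = 0.0596) and with the poly-A covariate (1.02, adjusted p = 0.667).

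ATF3 measured 10.68, 10.09 and 8.88 at Day 13 in vivo, below all 3 in vitro arrays, and its difference of 2.05 ± 0.47 was not called (adjusted p = 0.0827). AARS1 measured 12.37, 12.33 and 12.18 at Day 13 in vivo, above all 3 in vitro arrays, with −1.04 ± 0.20 (adjusted p = 0.0559). Without Day 13 in vitro replicate 3, singled out after seeing the data, 6 genes were called. AARS1 (−1.30) and VARS2 (−1.90) were lower, and ATF3 (2.33), EPRS1 (1.05), LARS1 (1.25) and MARS2 (2.15) higher. That was the highest count among the 12 fits that each left out 1 array. The share of all probe sets called in that fit was not analysed here, so the count cannot be set against it. EPRS1 measured 12.24, 12.49 and 11.64 at Day 13 in vitro and 11.22, 11.47 and 11.27 in vivo, and LARS1 11.91, 11.59 and 10.62 against 10.40, 10.52 and 10.58. In both genes replicate 3 of the in vitro group lay nearest to the in vivo arrays. Leaving it out was bound to enlarge their differences, so that fit is not a separate test. PSAT1 measured 8.40, 8.11 and 9.76 at Day 13 in vivo and 10.81, 9.35 and 10.02 in vitro, which overlapped. PHGDH in vivo measured 4.39, 6.28 and 4.99, overlapping with in vitro. PSPH measured 8.99, 7.22 and 9.01 in vivo and 8.42, 8.48 and 8.32 in vitro.

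**Figure D5:**
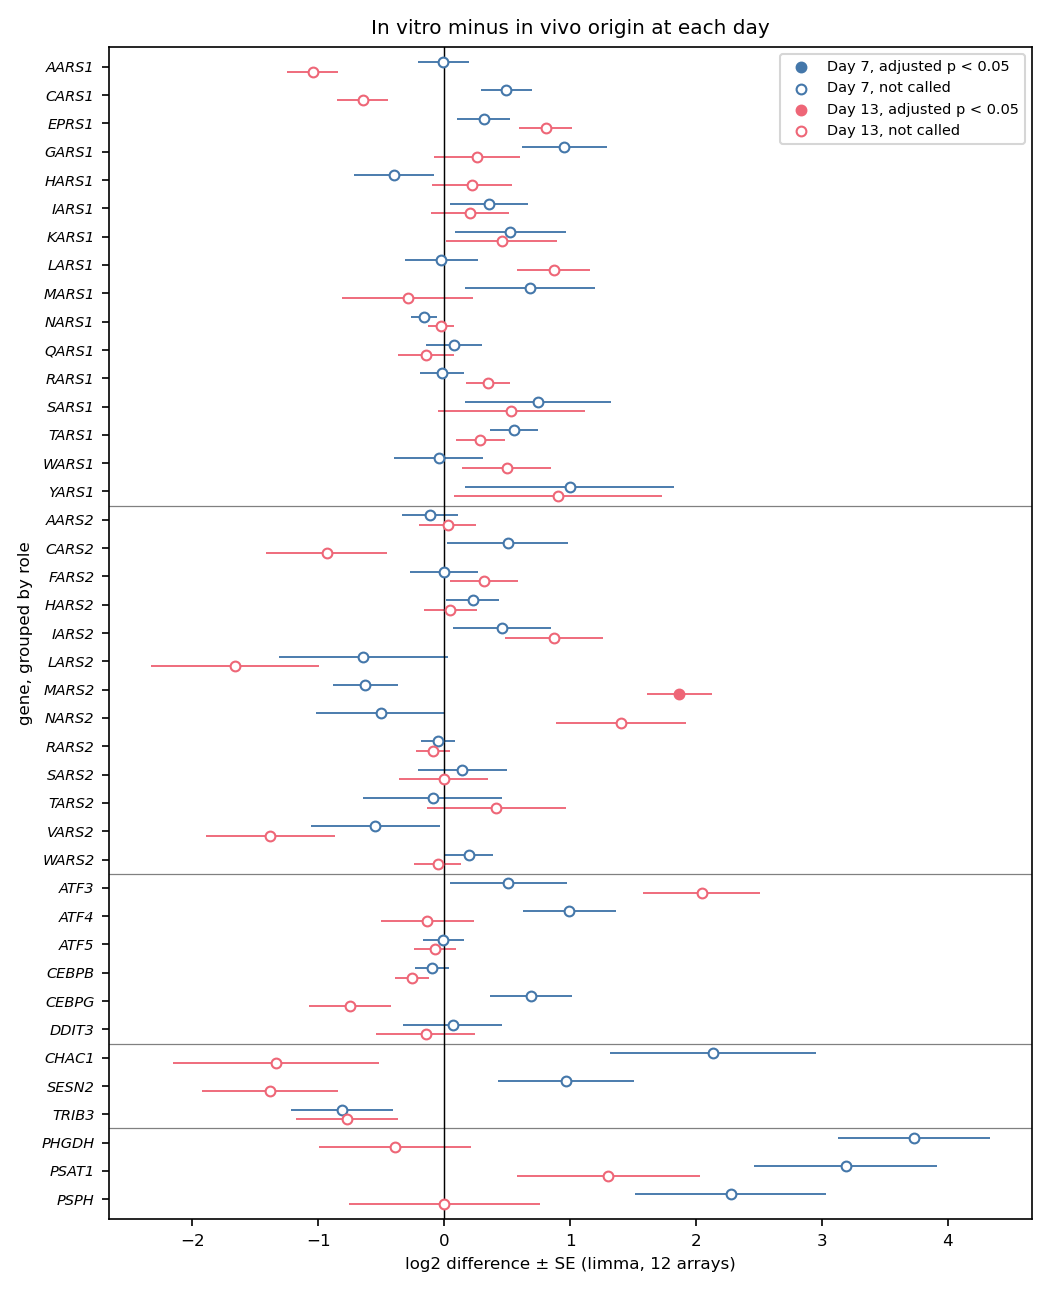
Log2 difference between in vitro and in vivo origin ± SE (x axis) for all 41 genes (y axis, grouped by role), at Day 7 (blue) and Day 13 (red); filled points have an adjusted p below 0.05. MARS2 at Day 13 is the 1 filled point, and the 3 serine synthesis genes at Day 7 lie between 2.28 and 3.73.

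Other genes of the pathway were taken from lists without the 41 genes. Of 12 measured genes for the multi-synthetase complex and tRNA handling, none was called between days. An unadjusted p below 0.05 was reached by 3 in vivo and 2 in vitro, against 27.3% and 38.6% of probe sets above background. Of those probe sets 8.23% were called between days in vivo and 16.6% in vitro. XPOT, which exports tRNA from the nucleus, was higher in vitro at Day 13 by 1.44 ± 0.24 (limma, adjusted p = 0.0303), the 1 call of the list. Of probe sets above background 2.57% were called in that comparison. Of 21 genes for the eIF2 kinases, phosphatases and exchange factor, EIF2B4, an exchange factor subunit, fell by 0.83 ± 0.16 between the days in vivo (adjusted p = 0.0257). EIF2B4 was the 1 call of that list in vivo, against the same 8.23%. None was called in vitro, where 12 of 21 had an unadjusted p below 0.05, against 38.6% of probe sets above background.

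Of 38 other ATF4 target genes, 2 were higher and 4 lower at Day 13 in vivo, and 4 were higher and 9 lower in vitro. Of probe sets above background, 3.64% were called higher and 4.59% lower in vivo, and 7.86% and 8.75% in vitro, which are also the shares to set beside the counts of the lists that follow. GPT2, an alanine aminotransferase, fell by 1.74 ± 0.16 in vivo (adjusted p = 0.000851), and ALDH18A1, of proline synthesis, rose by 3.14 ± 0.30 (adjusted p = 0.000944). KLHL24 fell by 2.88 ± 0.32 in vivo (adjusted p = 0.00198), and in vitro it fell by 3.58 (adjusted p = 0.000446). HERPUD1, of endoplasmic reticulum protein degradation, rose by 3.94 ± 0.35 in vitro (adjusted p = 0.000456). The members of the list thus moved in both directions in embryos of either origin.

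SLC1A4, a transporter of serine and alanine, measured 4.50, 4.49 and 4.58 at Day 7 in vitro and lay at background on all arrays of the other 3 groups. It was at least 2.19-fold higher at Day 7 in vitro than at Day 7 in vivo, with the in vivo arrays set at background (adjusted p = 0.000376), and by the same bound than at Day 13 in vitro (adjusted p = 2.82e-05). It was the 1 gene called at Day 7 between origins in the lists of ATF4 targets and of 18 serine, glycine and one-carbon enzymes, and is in both. Of probe sets above background 0.378% were called in that comparison. In the second list, AMT, of the glycine cleavage system, fell by 3.17 ± 0.20 between the days in vivo (adjusted p = 9.77e-05), and GCSH, of the same system, fell by 2.87 ± 0.51 (adjusted p = 0.0181). In vitro 4 genes of the list were lower at Day 13: AMT fell by 3.04 (adjusted p = 7.64e-05), and MTHFD1L, of mitochondrial folate metabolism, fell by 1.85 (adjusted p = 0.00924).

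Of 26 genes for amino acid sensing at mTORC1, TSC1, of the complex that inhibits mTORC1, fell by 3.43 ± 0.71 between the days in vivo (adjusted p = 0.0355), WDR59 fell by 1.77 ± 0.38 (adjusted p = 0.0414), and none rose. In vitro 2 rose and 2 fell: RRAGC, a Rag GTPase, rose by 1.42 ± 0.17 (adjusted p = 0.0022), EIF4E, which binds the mRNA cap, by 1.61 ± 0.32 (adjusted p = 0.0204), and RRAGB fell by 2.46 ± 0.45 (adjusted p = 0.0141). No gene of this list was called between origins, where 1 had an unadjusted p below 0.05 at Day 7 and 8 at Day 13. The shares of probe sets above background with such a p were 12% at Day 7 and 29.9% at Day 13.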

How the data were processed

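The authors deposited log2 intensities per probe set of a bovine Affymetrix array. Per the submitters' processing notes the tools were RMA, GCRMA and limma, without versions, and which of RMA and GCRMA made the values was not stated. Per the labels' protocols, RNA was extracted with Trizol, and 75 ng was labelled in 2 cycles. Of 24128 rows, 112 control reporters did not enter the fit; 13292 probe sets had a single gene symbol and 10724 did not. From the deposited values, a model of 4 group means was fitted in limma 3.58.1 (R 4.3.3), with 5 contrasts, Benjamini-Hochberg adjustment over 24016 probe sets and 8 residual degrees of freedom. The script was tested on simulated data. Genes and lists were chosen with earlier results of these data known. Values on every array are given for each of the 41 genes called and for ATF4, ATF3, DDIT3, TRIB3, CHAC1, PSAT1, PHGDH, PSPH and SESN2, and up to 3 called genes with the smallest adjusted p per list and contrast were named. Of the 41 probe sets, 10, among them those of LARS2, MARS2, RARS2, CHAC1 and PSAT1, have names with A1 in place of S1, which refers to the orientation of the source sequence, and the strand they read was not analysed here. Of the 41 genes, 7 had 1 value to 3 decimals on 3 or more arrays, as did 22.5% of probe sets above background. Nothing in the labels ties same-numbered pools to one another: of 18 same-numbered pairs, 3 had deviations correlating above 0.1 (median −0.06, −0.60 to 0.39), so the numbers were not treated as pairs. The labels call the pools biological replicates, and p-values measure the spread between pools, with 3 arrays a group limiting the precision. Replicates correlated at 0.963 to 0.991. Alternatives were another normalization, scale, filter, moderation, choice of arrays, block, covariate and probe set.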

Additional observations from a re-analysis of the deposited data

Results flagged for a closer look

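The day difference of MARS2, the mitochondrial methionyl-tRNA synthetase, differed between origins by 2.49 ± 0.37 on the log2 scale in limma's test of the difference itself (adjusted p = 0.0378): it was −0.62 in vivo and 1.87 in vitro. All 3 in vivo arrays were lower at Day 13 than at Day 7, and all 3 in vitro arrays were higher. Poly-A control values were also lowest in the Day 13 in vitro group, and with them as a covariate the difference was 1.79 (adjusted p = 0.223). Leaving out Day 13 in vitro replicates 1 and 2 together, chosen after seeing the data, gave 1.93. In that fit the Day 13 in vitro group is 1 array, assumed to vary like the other groups. Of the 21 alternatives tried, the call was kept in 9 and lost in 12. It was lost without 9 of the 12 arrays left out singly, and with trend and robust moderation, the replicate block or the poly-A covariate.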

How the results depend on the processing

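No called gene changed sign under any of the 22 alternatives tried per comparison (21 for the difference between day effects). Genes called between days in vitro, 9 in the fit as reported, came to 5 with an intensity trend and robust moderation, 4 with only the 6 arrays compared, 0 with the poly-A covariate, 2 without Day 13 in vitro replicates 1 and 2 together, and 5 to 12 without each single array. Between days in vivo, 3 became 5 after centring on ribosomal protein genes and 4 with only probe sets above background, CHAC1 being added in both. They became 0 with trend and robust moderation, 0 with the 6 arrays alone, 1 with the GAPDH covariate, and 2 to 4 without single arrays. Between origins at Day 13, 1 became 3 after centring, 3 with only probe sets above background, 0 with trend and robust moderation, the 6 arrays alone, the replicate block, the poly-A covariate, the GAPDH covariate or without replicates 1 and 2 together, and 0 to 6 without single arrays. At Day 7, 0 became 1 after centring and 1 with the filter, PHGDH in both. For the difference between day effects, 1 became 2 after centring, 2 with the filter, 0 with trend and robust moderation, the replicate block or the poly-A covariate, and 0 to 3 without single arrays. The replicate block gave 3 calls between days in vivo, of which 2 were among those reported (CEBPG came in and LARS2 went out), 6 in vitro and 0 at Day 7. The filter adjusts over fewer tests and the 6-array fits hold fewer arrays; for the other settings the cause was not tested. Centring moved the median of probe sets above background in vivo between days from −0.02 to −0.42, and the median of the 41 genes from 0.13 to −0.27. In vitro the split of calls was 2 higher and 7 lower as reported, and 6 higher and 5 lower after centring. Probe sets at background give no level.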
